A study of Rattus norvegicus with 4 samples.

Results

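The genes described here build the junctions of the intercalated disc, the end-to-end contact between heart muscle cells. They were chosen by symbol: Gja1 and Gjc1 of the gap junction, Dsp, Pkp2, Jup, Dsg2 and Dsc2 of the desmosome, and Cdh2, Ctnnb1 and Ctnna3 of the adherens junction. Of these 10 symbols, 8 were found in the table among 14137 gene identifiers, and all 8 passed the filter on low values that left 12949 genes tested. Pkp2 and Ctnna3 were not analysed here.

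Expression was measured by RNA sequencing of primary ventricular heart muscle cells from newborn rats, infected with lentivirus and harvested on day 5. The Crat hairpin cultures received a short hairpin RNA against Crat and carry the label KO, and the control cultures received a control hairpin and carry the label WT. Both groups were therefore infected, and no further allele, drug, strain or exact age was given in the sources used here. There were 4 libraries, 2 per group, and the comparison asks how junction transcripts differ once Crat, the mitochondrial carnitine acetyltransferase, is depleted.

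Gap junctions are clusters of connexin channels through which current passes between neighbouring cells. Desmosomes join cells mechanically: the cadherins desmoglein and desmocollin meet outside the cell, and plakoglobin, plakophilin and desmoplakin tie them to desmin filaments inside it. Adherens junctions use N-cadherin, which binds beta-catenin or plakoglobin, and alpha-catenin links these to actin. In heart these parts mix in the same membrane region, and human mutations of the desmosome genes cause arrhythmogenic cardiomyopathy. Gja1, Cdh2, Ctnnb1 and Jup are also expressed by fibroblasts or smooth muscle cells, which such cultures contain.

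Depth was very uneven, at 321516 and 1622998 reads in the Crat hairpin libraries and 23680064 and 1321735 reads in the control libraries, so that 1 read was worth 3.11 RPM (reads scaled so that each library has the same total) in Crat hairpin replicate 1. RPM is not divided by gene length, and levels of different genes are therefore not compared here. The targeted gene followed the labels: Crat had 24.9 and 19.7 RPM in Crat hairpin libraries, against 148 and 156 RPM in control libraries. Marker counts are of genes with a limma adjusted p under 0.05, which 12.6% of all tested genes passed as higher and 6.36% as lower. Cardiomyocyte markers with a row numbered 7 of the 8 listed, and 5 fell. The summed level of the 7 was 6168 and 6490 RPM in Crat hairpin libraries, against 15842 and 16307 RPM in control libraries. Myh6 and Tnnt2 made up the largest parts of this sum. Ryr2 and Mb did not pass, and Ryr2 had 414 and 505 RPM in Crat hairpin libraries, against 444 and 483 RPM in control libraries. Smooth muscle and pericyte markers, 6 of 6 listed, fell in 4 cases and rose in 1, and summed to 1838 and 1757 RPM against 4926 and 5035 RPM in controls. Fibroblast markers, 8 of 8, fell in 4 cases and rose in 2, with sums of 12765 and 12797 RPM against 15055 and 15776 RPM in controls. These sums hide unlike changes. Pdgfra rose 4.29-fold and Dcn 2.17-fold, while Thy1 fell 5.23-fold, Col1a2 1.55-fold, Col1a1 1.17-fold and Postn 1.14-fold. Endothelial (4 of 6), leukocyte (6 of 6) and epicardial or epithelial markers (5 of 7) summed to 46.7 to 75.2 RPM per list in Crat hairpin libraries and 41.9 to 49.2 RPM in control libraries, with 2 genes called as higher and 1 as lower over the 3 lists. Markers at 0 were Mb, Rgs5, Cdh5, Upk3b and Cdh1 in Crat hairpin replicate 1, and Cdh1 in control replicate 2. The part of these marker differences in the junction gene results was not tested. In such bulk samples, fewer cells of a type and less RNA per cell cannot be told apart.

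The junction genes did not move as a block. With the deposited scaling, Gja1, Dsg2 and Ctnnb1 were higher in Crat hairpin cultures, Jup and Gjc1 were lower, and Dsp, Cdh2 and Dsc2 did not pass (limma on log2(RPM + 1), Benjamini-Hochberg adjusted p under 0.05 over all genes). That is 5 of 8 called, where 19.0% of all tested genes were called and 25.0% of the 9543 genes averaging 10 RPM or more, a level all 8 reach. The groups did not overlap in 6 of the 8, beside 60.8% of all tested genes. By direction, 3 of 8 were higher beside 12.6% of all tested genes, and 2 of 8 were lower beside 6.36%. The median log2 fold change was -0.13 over the 8 genes and 0.15 over all tested genes. Summed over the 8 genes, the level was 2118 and 2354 RPM in Crat hairpin libraries and 2029 and 2050 RPM in control libraries.

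**Figure D1:**
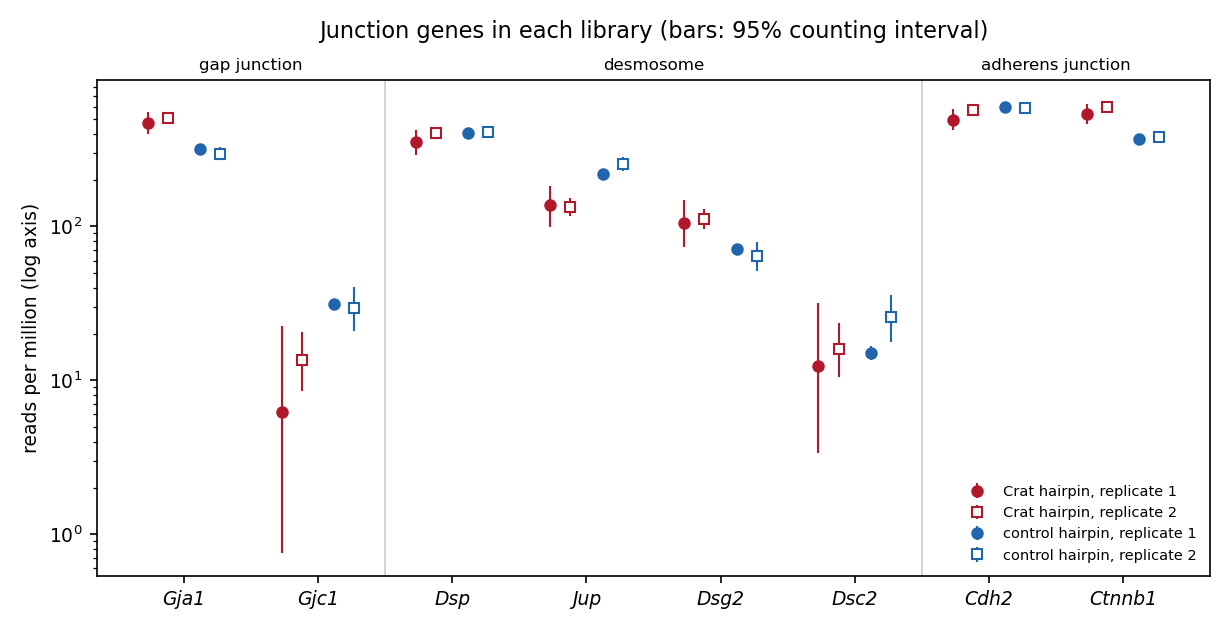
Level of each junction gene in every library, in RPM on a log axis, with filled circles for replicate 1, open squares for replicate 2, red for Crat hairpin and blue for control hairpin. Bars are exact 95% Poisson intervals and cover counting error only. Red points lie above blue for Gja1, Dsg2 and Ctnnb1 and below for Gjc1, Jup and, narrowly, Cdh2, while the groups overlap for Dsp and Dsc2.

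Gja1 encodes connexin 43, the main gap junction channel of working ventricular muscle. Gja1 had 473 and 503 RPM in Crat hairpin libraries, against 321 and 297 RPM in control libraries. Both Crat hairpin values lay above both control values. Gja1 rose by 0.66 ± 0.08 in log2 units (limma estimate ± SE from 2 libraries per group; adjusted p = 4.8e-04), which is 1.58-fold (95% interval 1.38 to 1.80). This value was higher than that of 79.5% of tested genes.

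Gjc1 encodes connexin 45, the connexin of the conduction system and of the embryonic heart, which can form mixed channels with connexin 43. Gjc1 had 6.22 and 13.6 RPM in Crat hairpin libraries, against 31.5 and 29.5 RPM in control libraries. Both Crat hairpin values were below both controls, but they rest on 2 and 22 reads. Gjc1 fell by 1.62 ± 0.39 on the log2 scale (limma adjusted p = 0.016), and just 2.35% of tested genes had a lower value. With the reads of each group pooled, the ratio of Crat hairpin to control was 0.394, with an exact 95% counting interval of 0.251 to 0.590. The adjusted p was 0.322 without control replicate 1, 0.0956 without control replicate 2 and 0.133 in the authors' deposited table, so the call did not hold in these cases, while the log2 fold change ran from -1.11 without Crat hairpin replicate 1 to -2.12 without Crat hairpin replicate 2.

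The 2 connexins thus went in opposite directions, and their ratio within a library does not depend on how libraries are scaled. Reads of Gjc1 per read of Gja1 came to 0.0132 and 0.0269 in Crat hairpin libraries and 0.0982 and 0.0992 in control libraries. The ratio was 5.24-fold lower in Crat hairpin cultures, a log2 difference of -2.39 with a pooled SD between replicates of 0.52. The counting intervals were wide for Crat hairpin replicate 1, 0.00158 to 0.0484, and they stayed below those of both control libraries, whose lowest bound was 0.0695. With 2 libraries against 2 an exact permutation test cannot go below p = 0.333, so the ratios are given without a test.

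In the desmosome, the cadherin and the plaque protein called by the test moved apart. Dsg2, desmoglein 2, the only desmoglein isoform of heart muscle, had 106 and 112 RPM in Crat hairpin libraries, against 71.2 and 64.3 RPM in control libraries. The groups did not overlap, and Dsg2 rose by 0.67 ± 0.15 (limma adjusted p = 0.012). Its call was lost without control replicate 1 (adjusted p = 0.169), without control replicate 2 (adjusted p = 0.191), under median-of-ratios scaling (adjusted p = 0.0529) and in the authors' deposited table (adjusted p = 0.270).

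Jup encodes plakoglobin, which sits in desmosomes and adherens junctions alike and is a close relative of beta-catenin. Jup had 137 and 134 RPM in Crat hairpin libraries, against 220 and 255 RPM in control libraries. Both Crat hairpin libraries were lower than either control. Jup fell by 0.80 ± 0.12 (limma adjusted p = 0.0010), a level 1.75-fold lower, and edgeR on the whole reads gave a log2 fold change of -0.98. Jup was the junction gene with the smallest adjusted p in the authors' deposited table (2.8e-06).

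Dsc2, desmocollin 2, the partner cadherin of Dsg2, had 12.4 and 16.0 RPM in Crat hairpin libraries, against 15.1 and 25.7 RPM in control libraries. The groups overlapped and the Crat hairpin values rest on 4 and 26 reads. The log2 fold change was -0.45 with a 95% interval from -1.26 to 0.35 (limma adjusted p = 0.43), an interval that holds changes in either direction. Reads of Dsc2 per read of Dsg2 were 0.118 and 0.144 in Crat hairpin libraries and 0.212 and 0.400 in control libraries; the groups did not overlap, but the counting interval of Crat hairpin replicate 1 reached 0.330.

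Dsp, desmoplakin, which ties the desmosome to desmin, had 351 and 404 RPM in Crat hairpin libraries, against 402 and 409 RPM in control libraries. The second Crat hairpin library lay between the control values. The log2 fold change was -0.11 with a 95% interval from -0.31 to 0.10 (limma adjusted p = 0.47). It passed as lower in edgeR, at -0.25 (adjusted p = 0.013), and without Crat hairpin replicate 2, at -0.21 (adjusted p = 0.041), and stood at -0.30 under median-of-ratios scaling (adjusted p = 0.0506).

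The adherens junction pair also split. Ctnnb1 encodes beta-catenin, which binds the tail of N-cadherin and is also the transcriptional effector of Wnt signalling. Ctnnb1 had 538 and 600 RPM in Crat hairpin libraries, against 368 and 378 RPM in control libraries. The groups were well apart, and Ctnnb1 rose by 0.60 ± 0.08 (limma adjusted p = 6.8e-04), or 1.52-fold. Without control replicate 1 its adjusted p was 0.0564 at a log2 fold change of 0.59.

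Cdh2, N-cadherin, the classical cadherin of the disc, had 495 and 572 RPM in Crat hairpin libraries, against 601 and 591 RPM in control libraries. Both Crat hairpin values were lower, by a margin smaller than the distance between the Crat hairpin replicates. The log2 fold change was -0.16 with a 95% interval from -0.35 to 0.02 (limma adjusted p = 0.22). The call on Cdh2 depends on scaling and on 1 library: median-of-ratios scaling gave -0.36 (adjusted p = 0.016) and edgeR -0.32 (adjusted p = 2.3e-04), both as lower, and with the deposited scaling it passed as lower without Crat hairpin replicate 2, at -0.27 (adjusted p = 0.0073).

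**Figure D2:**
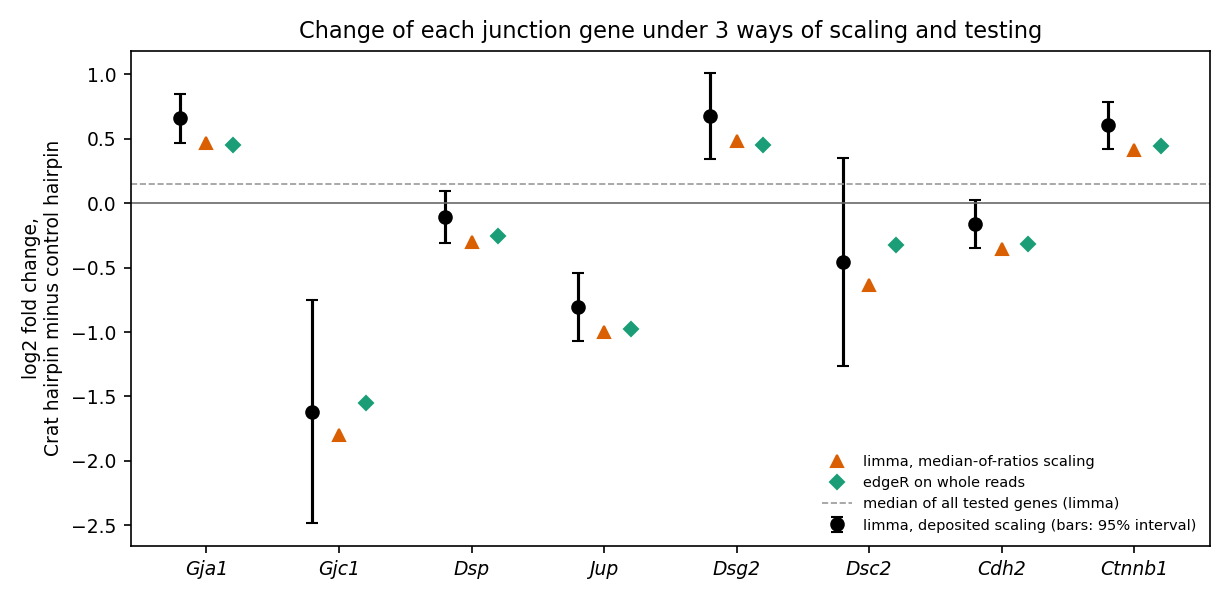
Log2 fold change of each junction gene, Crat hairpin minus control hairpin, by limma on the deposited RPM (circles, with 95% intervals), limma after median-of-ratios scaling (triangles) and edgeR on whole reads (diamonds). The dashed line is the median of all tested genes in the first fit, 0.15. All 8 genes keep their direction across the 3 estimates, and the rescaled values lie lower except for Gjc1 and Dsc2 in edgeR.

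Median-of-ratios scaling shifts the median of all tested genes by -0.18, and the junction genes move with it. With the deposited scaling, log2 fold changes less the median of 0.15 were 0.51 for Gja1, 0.53 for Dsg2 and 0.46 for Ctnnb1. On the same measure Jup stood at -0.95 and Gjc1 at -1.77, while Dsp, Cdh2 and Dsc2 stood at -0.25, -0.31 and -0.60. Under edgeR, 3 of the 8 were higher and 4 lower, beside 13.7% and 15.9% of all tested genes. Under median-of-ratios scaling, 2 were higher and 3 lower, beside 8.04% and 9.66%. Of the calls over all genes, 66.5% were higher with the deposited scaling and 45.4% under median-of-ratios scaling.

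Plakoglobin and beta-catenin share binding partners at the membrane, and their transcripts shifted against each other. Reads of Jup per read of Ctnnb1 were 0.254 and 0.223 in Crat hairpin libraries and 0.598 and 0.674 in control libraries. The ratio was 2.67-fold lower in Crat hairpin cultures (log2 difference -1.41, pooled SD 0.13), and the highest Crat hairpin counting bound, 0.356, stayed under the lowest control bound, 0.578. The ratio of Cdh2 to Ctnnb1 was also lower, with 0.919 and 0.954 in Crat hairpin libraries and 1.63 and 1.56 in control libraries. This ratio was 1.70-fold lower (log2 difference -0.77, pooled SD 0.04), and again the groups did not overlap. Both ratios are taken against Ctnnb1, which rose, so they are not separate results. Cdh2 itself had a log2 fold change of -0.16 and did not pass.

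**Figure D3:**
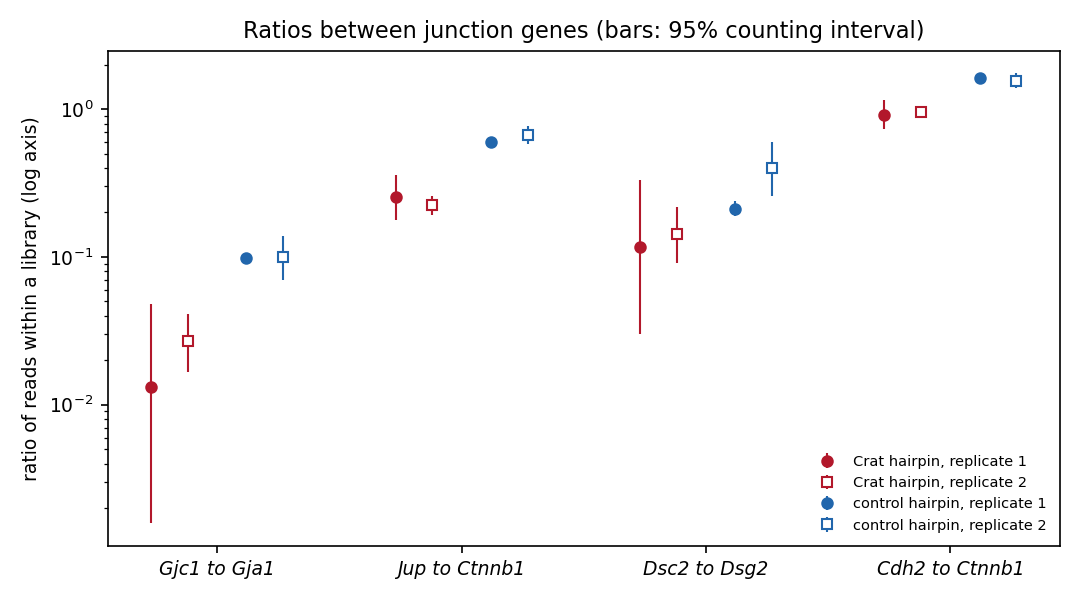
Ratio of reads between pairs of junction genes within each library, on a log axis, with symbols and colours as in the plot of levels and exact 95% binomial counting intervals. Ratios are not corrected for gene length and are compared between libraries alone. All 4 ratios are lower in the Crat hairpin libraries, from 0.0132 against 0.0982 for Gjc1 to Gja1 in the replicates numbered 1 to 0.954 against 1.56 for Cdh2 to Ctnnb1 in those numbered 2.

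The promoters of Gja1 and Jup are shown because these are a rise and a fall called under both scalings and by edgeR; they come from RefSeq, build GRCr8, and hold 250 bases before and 50 after the annotated start, in the direction of the gene. Capitals mark matches to the motifs searched on both strands, which were the AP-1 motif TGANTCA, the TCF/LEF motif CTTTGAT and the interferon-stimulated response element (GAAA, 2 bases of any kind and GAAA again). These sequences are of another build than mRatBN7.2, which the submitters' processing notes name.
Gja1 at chr20:36302314-36302613, plus strand: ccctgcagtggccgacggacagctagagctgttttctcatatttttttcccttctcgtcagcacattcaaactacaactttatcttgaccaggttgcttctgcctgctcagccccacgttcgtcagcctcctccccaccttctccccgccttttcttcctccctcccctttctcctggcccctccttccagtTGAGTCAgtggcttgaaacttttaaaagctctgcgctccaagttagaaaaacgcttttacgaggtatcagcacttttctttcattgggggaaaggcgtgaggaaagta
Jup at chr10:85827380-85827679, minus strand: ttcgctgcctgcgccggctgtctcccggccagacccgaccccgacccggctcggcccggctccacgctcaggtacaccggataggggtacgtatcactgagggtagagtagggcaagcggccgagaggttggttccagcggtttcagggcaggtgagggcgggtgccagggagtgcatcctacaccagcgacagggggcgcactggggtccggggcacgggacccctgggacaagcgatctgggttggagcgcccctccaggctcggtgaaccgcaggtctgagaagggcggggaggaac
The Gja1 window holds 1 AP-1 match, TGAGTCA, beginning 58 bases before the start; the Jup window holds no match to the 3 motifs. No match to the 3 motifs was found in the windows of Dsp, Dsg2, Dsc2, Ctnnb1 and Ctnna3, the other members with a promoter entry. Of these, Ctnnb1 was also a rise called under both scalings and by edgeR. Among 33469 promoters of the same length, 7.33% hold the AP-1 motif, 3.63% the TCF/LEF motif and 3.92% the interferon element. The windows also differ in composition, with 50.3% G and C for Gja1 and 69.0% for Jup. A match is a description of the letters in the window, and binding was not measured.

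The counts in lists of related genes are read beside the shares of all tested genes, which were 12.6% higher and 6.36% lower in limma and 13.7% higher and 15.9% lower in edgeR. Among 14 tested adherens junction partners and other cadherins, 4 fell in limma (2 without control replicate 1) and 6 in edgeR, against 6.36% and 15.9% of all tested genes. None passed as higher in limma, where 1 did at an unadjusted p under 0.05, and 1 passed in edgeR. In a list of this length, the counts of higher genes, unlike those of lower genes, are near the shares of all genes. The median log2 fold change of the list was -0.25, and that of all tested genes 0.15. Ctnna1, alpha-E-catenin, which links beta-catenin to actin, had 538 and 627 RPM in Crat hairpin libraries, against 1142 and 1140 RPM in control libraries. It fell by 0.97, and vinculin, Vcl, which binds alpha-catenin under tension, fell by 0.96. Both moved opposite to Ctnnb1. Cdh13 fell by 0.93 and Cdh11, a cadherin of fibroblasts, by 0.56; the Cdh13 call was lost without control replicate 1 (adjusted p = 0.120), and that of Cdh11 without either control (adjusted p = 0.156 and 0.236).

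Of 26 tested scaffolds and anchors of the disc, 14 fell in limma and 22 in edgeR, beside 6.36% and 15.9% of all tested genes. Without control replicate 1 the limma count was 3, where 176 of all tested genes were lower, and without control replicate 2 it was 8, where 414 were lower. Their median log2 fold change was -0.42. Actn2, called as lower, is in this list and also among the cardiomyocyte markers, whose summed level fell. The part of that fall in the counts of this list was not tested. Sorbs2, an adaptor protein of the disc and Z-line, had 383 and 402 RPM in Crat hairpin libraries, against 1188 and 1180 RPM in control libraries, and fell by 1.59 ± 0.07. Xirp2, an actin-binding protein of the disc, fell by 1.57, with adjusted p = 0.0628 without control replicate 1, and Des, the desmin to which desmoplakin attaches, fell by 1.30. F11r, junctional adhesion molecule A, had 18.7 and 24.0 RPM in Crat hairpin libraries, against 56.5 and 44.6 RPM in control libraries. It fell by 1.21 ± 0.25 (limma adjusted p = 0.0085), a call lost without control replicate 1 (adjusted p = 0.300).

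Of 6 tested desmosome relatives, most of them known from skin, 2 fell in limma, beside 6.36% of all tested genes, and 0 fell without control replicate 1 (limma; 2 in edgeR with all libraries). Pkp1, plakophilin 1, had 0 and 6.78 RPM in Crat hairpin libraries, against 22.8 and 27.2 RPM in control libraries; its call was lost without control replicate 1 (adjusted p = 0.303) and without control replicate 2 (adjusted p = 0.0676). Perp, a desmosomal membrane protein and p53 target, had 9.33 and 19.7 RPM in Crat hairpin libraries, against 49.3 and 37.8 RPM in control libraries, and fell by 1.59; without control replicate 1 its adjusted p was 0.323. Among 8 other connexins and pannexins none passed in limma or edgeR (0 at an unadjusted p under 0.05 in limma, 1 in edgeR). Without Crat hairpin replicate 1, Gja3 passed as lower at -1.25 (limma adjusted p = 0.0323), and without Crat hairpin replicate 2, 1 passed as lower, which was Gja4, named after its values were seen and at 0 reads in the Crat hairpin library that remained. Gja5, connexin 40 of atrium and conduction system, had 18.7 and 14.2 RPM in Crat hairpin libraries, against 14.2 and 13.6 RPM in control libraries, and Gja3 had 9.33 and 3.70 RPM against 8.53 and 12.1 RPM in controls. At these levels, 1 read of Crat hairpin replicate 1 is a large share of the value.

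Beta-catenin also acts in the nucleus, where it drives Wnt target genes through TCF factors. Of 12 tested genes of its destruction complex and targets, 2 fell and 1 rose in limma, beside 6.36% and 12.6% of all tested genes, and 3 fell and 1 rose in edgeR, beside 15.9% and 13.7%. In a list of this length these counts are near the shares of all genes. The median log2 fold change was -0.15. Nkd2, a feedback inhibitor of Wnt signalling, had 34.2 and 27.7 RPM in Crat hairpin libraries, against 96.0 and 116 RPM in control libraries, and fell by 1.74 ± 0.20. Ccnd1, cyclin D1, fell by 1.35, and it answers to many signals besides Wnt. Tcf7l2, a TCF factor, rose by 1.13 (limma adjusted p = 0.025), a call lost under median-of-ratios scaling (adjusted p = 0.0551) and without either control library (adjusted p = 0.208 and 0.314).

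**Figure D4:**
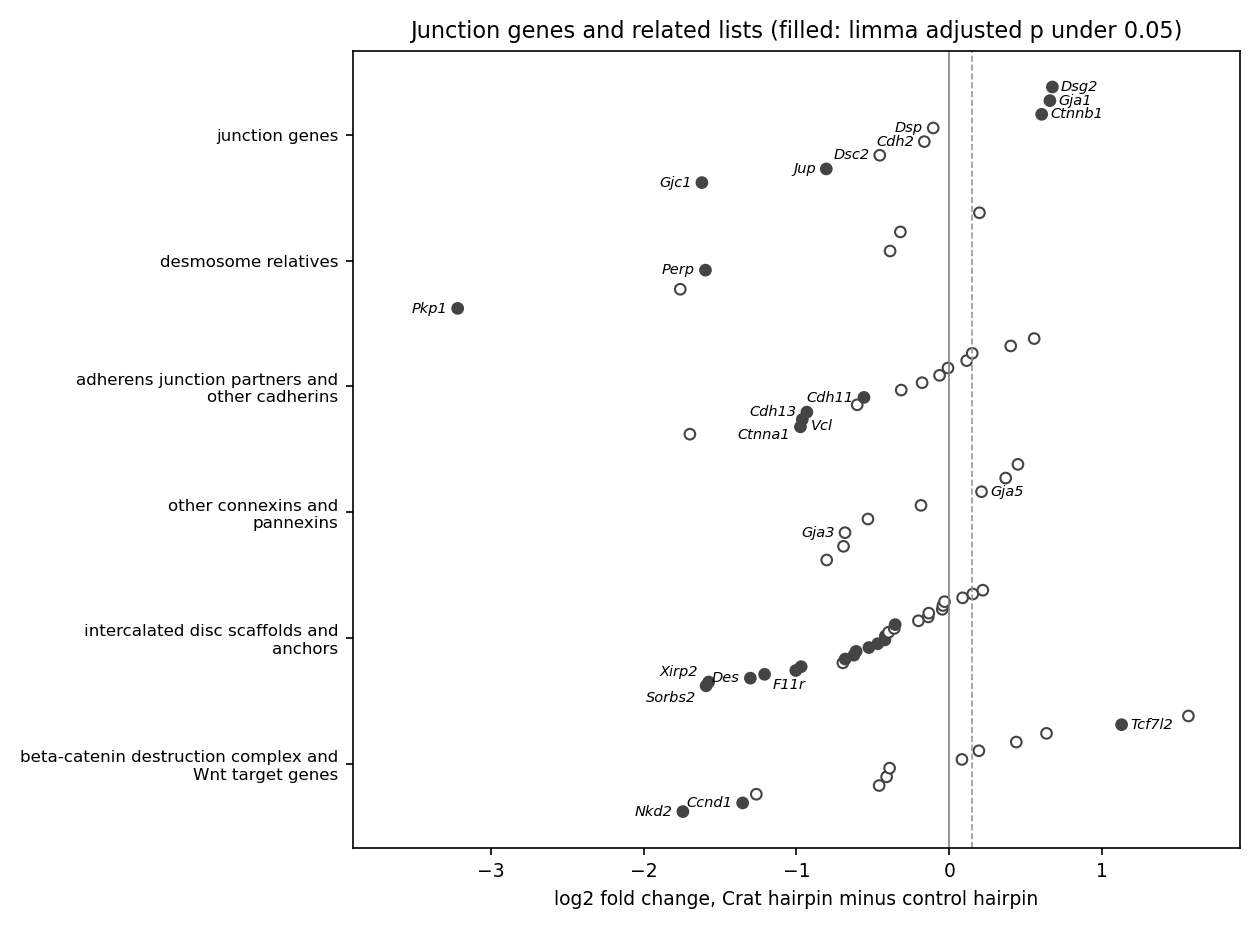
Log2 fold change, Crat hairpin minus control hairpin, of the 8 junction genes and of the tested genes of 5 related lists, 1 point per gene; filled points have a limma adjusted p under 0.05, and named points are the members and the genes chosen from each list. The dashed line is the median of all tested genes, 0.15. The junction genes lie on both sides of 0, while in the list of scaffolds and anchors 14 of 26 genes are called as lower.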

How the data were processed

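Libraries from total RNA were run on Illumina HiSeq, per the labels. Tools named without versions in the submitters' processing notes are kallisto and DESeq2, with the build mRatBN7.2. The authors deposited 14318 rows with a signal per library headed TPM, per the file headers. Within a library all values are multiples of the smallest (100% within 0.02 of a read), and the identifiers have the same sum in each library, so the signal is RPM with no division by length. The 140 identifiers on several rows were used once. The authors also deposited a p-value for each row, with its adjusted form.

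Genes averaging 1 RPM or more were tested as log2(RPM + 1) with limma 3.58.1 (variance trend, R 4.3.3) and Benjamini-Hochberg adjustment over all tested genes. Fold changes of low genes on this scale can be larger or smaller in size than those of edgeR. Pkp1 had -3.22 in limma and -2.26 in edgeR, and F11r had -1.21 in limma and -1.44 in edgeR. The test was planned for values in either TPM or RPM, and it was kept. Whole reads were tested with edgeR 4.0.16 and DESeq2 1.42.0 as alternatives; other scalings, pseudocounts, filters, priors, a replicate block, thinning and each library left out were also run. With 1 library left out its group holds 1, which is assumed to vary like the other group. Whether replicate libraries were grown apart is not stated; p-values then measure only the spread between these libraries, which may be technical, and limma takes part of it from genes of similar mean. Reads of replicates differed beyond counting error (chi-square per degree of freedom 1.30 for Crat hairpin, 1.49 for control), so each counted as 1 sample. Intervals of levels, of pooled reads and of ratios within a library cover counting error only. Intervals of limma fold changes rest instead on the spread between libraries as limma estimates it.

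The members and lists were chosen with earlier results of these data known. Named were all members, Crat, and from each related list the 4 largest changes past the threshold, or the 2 highest means where fewer than 2 passed. In the list of scaffolds and anchors, 1 gene is not reported here and was left out of its counts. Symbols come from the deposited table, promoters from RefSeq by symbol (7 of 10 members matched).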

Additional observations from a re-analysis of the deposited data

How the results depend on the processing

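The 8 junction genes kept their direction under every alternative run; their calls did not all hold. Gja1 and Jup kept their call except without a variance trend (adjusted p = 0.124 and 0.106) and after thinning every library to 321516 reads (adjusted p = 0.0721 and 0.132), where Ctnnb1, Dsg2 and Gjc1 were also lost (without a trend adjusted p = 0.138, 0.123 and 0.125; after thinning 0.104, 0.104 and 0.174). DESeq2 did not call Dsg2 (adjusted p = 0.242). Against 3 members higher and 2 lower, both counts were 0 without a trend and 0 after thinning (limma, with 3 and 2 at an unadjusted p under 0.05 in each). The edgeR and voom fits each gave 4 lower, and 1 passed as lower in the authors' deposited table; leaving out 1 library gave 1 to 3 higher and 1 to 4 lower. Over all genes, 1631 were higher and 823 lower. Higher counts were 1042 under median-of-ratios scaling, 1005 under TMM, 266 without a trend, 748 in DESeq2, 75 after thinning and 694 in the authors' deposited table, and lower counts 1252, 1279, 79, 865, 58 and 792; edgeR gave 1774 and 2065 and voom 2138 and 1975. Leaving out 1 library gave 425 to 3632 higher and 176 to 2620 lower; both lowest counts came without control replicate 1, which holds most of the reads. The cause of these shifts was not tested. The fall of Crat stood at -2.67 after thinning (adjusted p = 0.101). Gja5 turned negative in edgeR (-0.12), DESeq2 (-0.032) and voom (-0.10). The log2 difference in the ratio of Cdh2 to Ctnnb1 was -0.71 after thinning, and leaving out a library kept all 4 ratios lower in Crat hairpin cultures. The replicate numbers were not taken as pairs. Deviations of same-numbered replicates had a correlation of 0.0061 over 12949 genes. This value cannot show whether they are pairs, because counting noise is large where 1 read is worth 3.11 RPM. The replicate block gave 1701 higher and 895 lower genes and the same 3 and 2 members. Depth limits Gjc1 and Dsc2, which rest on 2 and 4 reads in Crat hairpin replicate 1.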
